A study of Mus musculus with 8 samples.

Results

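The libraries described here are the 2 labelled Ex and the 2 labelled PC, 4 of the 8 libraries of a mouse colitis series. They were chosen by their low neutrophil and cytokine transcripts, so those transcripts are given as a description with no test, and every gene of the count table was compared between the groups. The series measured intestinal RNA of wild type C57BL/6 mice in 4 groups of 2 libraries. Ex mice (Ex 1 and Ex 2) received 1 mg of exosomes from bovine colostrum by gavage each day for 3 weeks and no dextran sulfate sodium (DSS), and their libraries are labelled day 6. PC mice (PC 1 and PC 2) are labelled as the DSS positive control: they received phosphate buffered saline and then 3% DSS in the drinking water for 6 days. The other groups were NC, labelled saline control, and ExDSS, exosomes followed by DSS. Ex and PC differ in both the exosomes and the DSS, so an effect of one cannot be told apart from an effect of the other. The labels name the tissue only as intestinal, and the gut region, age and sex of the mice are not stated there. Whether the 2 libraries of a group are from different mice is not stated, and the spread between them, on which all p-values rest, may be technical.

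DSS damages the lining of the colon when drunk, and neutrophils then enter the mucosa. Exosomes are small membrane vesicles that cells release, and colostrum is the first milk after birth. The colonic epithelium holds absorptive colonocytes, goblet cells that secrete the gel-forming mucin Muc2, and hormone-secreting enteroendocrine cells. Its secretory cells also release proteins that act on bacteria, among them the angiogenin Ang4 and the resistin-like molecule Retnlb. Fat lies outside the gut wall in the mesentery, and its adipocytes are recognised by adiponectin (Adipoq), leptin (Lep) and the lipid droplet proteins of the perilipin and Cide families.

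Levels are given as counts scaled to a library of 1000000 counts (CPM), with the library size adjusted by edgeR's TMM factors. The kit counts 3′ ends, so a CPM value is not divided by gene length, and levels are compared between libraries and not between genes. Ex 1, PC 1 and PC 2 held 8813622, 10158929 and 10412457 counts. Ex 2 held 1163147 counts, of which Rn45s, the ribosomal RNA precursor, took 53.5% (exact 95% binomial interval 53.4 to 53.6%, counting error only). Its share was 13.1% in Ex 1, 7.35% in PC 1 and 11.1% in PC 2. A single count in Ex 2 was worth 1.49 CPM, and a count of 0 there allows up to 4.47 CPM (3 counts), against 0.307 CPM in Ex 1.

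The neutrophil list was low in all 4 libraries, with summed levels of 26.2 CPM in Ex 1, 13.4 in Ex 2, 20.2 in PC 1 and 18.4 in PC 2, against 2140 to 3460 CPM in the 4 libraries of the other groups. S100a9, a calcium-binding protein abundant in neutrophils, stood at 3.17 CPM in Ex 1, 5.96 in Ex 2, 0.51 in PC 1 and 0.628 in PC 2. It stood at 1140 and 1130 CPM in the libraries labelled saline control. S100a8, its partner, was at 1.12, 0, 0.291 and 0.628 CPM in the same order. Il1b, the cytokine interleukin 1 beta, was at 1.84, 5.96, 2.98 and 1.81 CPM, against 437 to 764 CPM in the other groups. The libraries labelled as the DSS positive control were thus low, and those labelled saline control high, in these transcripts, which goes against the labels. The ExDSS libraries, also labelled as given DSS, were high, with S100a9 at 1430 and 1030 CPM. "PC" and "Ex" below mean the libraries labelled so. The cytokine and chemokine list summed to 552, 46.2, 296 and 414 CPM, most of which in Ex 1, PC 1 and PC 2 was Il18, an epithelial cytokine, at 503, 4.47, 248 and 363 CPM.

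Ex 2 stood apart from Ex 1 and from both PC libraries. Of 1141 genes with at least 100 CPM in Ex 1, PC 1 and PC 2, 565 were more than 10-fold under Ex 1 in Ex 2, 89 of these with no count at all, and 176 were within 2-fold of Ex 1. These folds between Ex 2 and other libraries, here and in the counts of genes high in Ex 2, are of CPM + 1. Across the 14567 genes tested, log2(CPM + 1) in Ex 2 correlated with Ex 1 at r = 0.478, with PC 1 at 0.489 and with PC 2 at 0.486. The same correlation was 0.964 between Ex 1 and PC 1, 0.978 between Ex 1 and PC 2, and 0.981 between PC 1 and PC 2. These describe genes, which are not independent replicates. With Rn45s left out and each library brought to the 541286 counts that remain in Ex 2, 13384 genes would be seen in Ex 1, 13494 in PC 1 and 13537 in PC 2, against the 8759 seen in Ex 2. Of the libraries not compared here, NC 1 would show 13452, NC 2 10758, ExDSS 1 8269 and ExDSS 2 10517, so a low number was not particular to Ex 2.

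The intestinal identity of Ex 2 was weak. Epcam, an epithelial adhesion molecule, was at 668 CPM in Ex 1, 5.96 (4 counts) in Ex 2, 692 in PC 1 and 696 in PC 2. Krt8, a keratin of simple epithelia, was at 1400, 8.94, 1200 and 1150 CPM. Summed over 17 epithelial markers, a list drawn up after the values had been seen, the levels were 7820, 65.6, 6850 and 6600 CPM. Genes that most cells express were uneven in Ex 2 as well: Actb, cytoplasmic actin, stood at 155 CPM there against 2630, 2230 and 2220 CPM in the others, while Eef1a1, a translation elongation factor, stood at 3690 CPM against 1420, 1330 and 1420. Where the transcripts of Ex 2 came from was not tested.

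**Figure D1:**
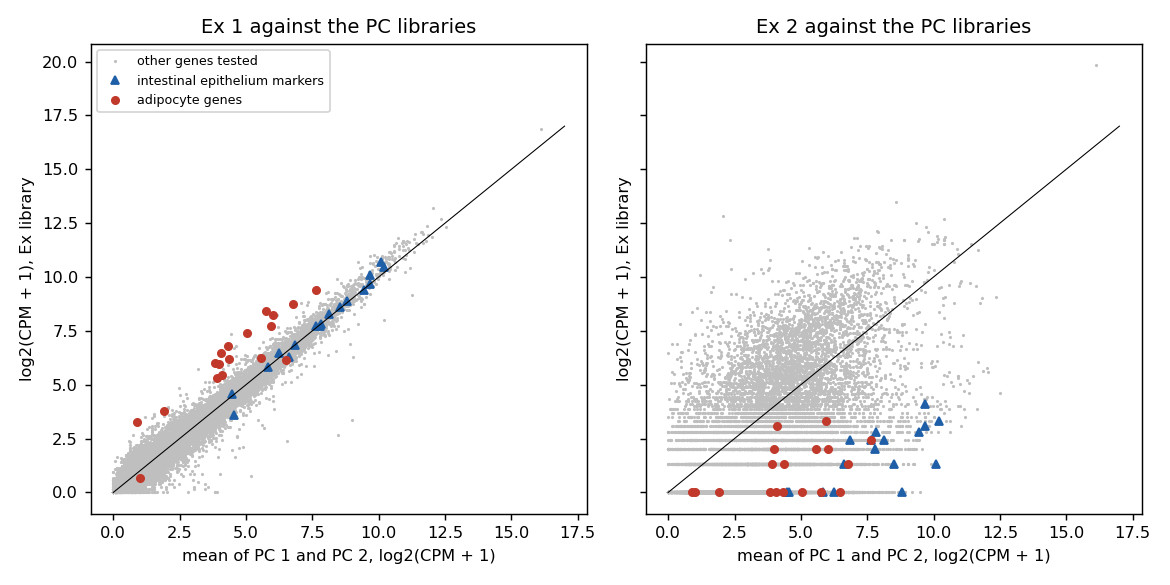
Level of each gene tested in Ex 1 (left) and Ex 2 (right) against the mean of PC 1 and PC 2, both as log2(CPM + 1), with adipocyte genes as red circles, intestinal epithelium markers as blue triangles and the line of equal level. In Ex 1 most epithelial markers lie near the line, Cdx2 (11 CPM against 28.3 and 17.4) lies under it and most adipocyte genes lie above it. In Ex 2 most genes of both lists lie below it, though a low gene such as Lep (0 CPM against 1.09 and 0.628) lies near it.

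Other genes were abundant in Ex 2 and low in the other 3 libraries. Of 1417 genes with at least 100 CPM in Ex 2, 339 were more than 10-fold above each of Ex 1, PC 1 and PC 2, and 203 were more than 10-fold above all 7 other libraries. Stc1, the secreted glycoprotein stanniocalcin, was at 7220 CPM in Ex 2, and at 2.56 CPM in Ex 1, 5.31 in PC 1 and 1.81 in PC 2. Cyr61, a matrix protein of the CCN family, was at 3390 CPM in Ex 2 and at 4.91, 3.64 and 4.48 CPM in Ex 1, PC 1 and PC 2. Tmem158, a membrane protein, was at 2500 CPM in Ex 2 against 16.2, 11.9 and 13 CPM. Ex 1 lay with the PC libraries for each of these genes. Fosl1, an AP-1 transcription factor whose line overlaps Ccdc85b, reached 331 CPM in Ex 2 and Cdh2, N-cadherin, 335 CPM, and neither passed 2 CPM in Ex 1 or a PC library. Gpr62 and Pcbp4, overlapping lines whose reads cannot be told apart, were at 1340 and 1350 CPM in Ex 2 and between 8.08 and 18.1 CPM in the other 3 libraries. Vim, the mesenchymal intermediate filament vimentin, was at 2570 CPM in Ex 2 against 245, 160 and 214 CPM in Ex 1, PC 1 and PC 2. Hsph1, a chaperone, was at 894 CPM against 11.7, 15.9 and 17.2 CPM, and Bbc3, a p53 target that promotes apoptosis, at 951 CPM against 5.01, 6.26 and 6.68 CPM. Tubb3, a neuronal tubulin, was at 261 CPM against 3.68, 2.77 and 3.38 CPM, and Hoxc6, a positional homeobox gene, at 118 CPM against 0.818, 0.291 and 0.236 CPM. Other members of their lists often went the other way. In edgeR's fit over all 8 libraries, the median log2 fold change over all genes was -0.5, so most genes lay lower in Ex, listed or not. In that fit, 6 enteric neuron and glia genes were higher in Ex than in PC and 19 lower. The same numbers were 5 and 20 for fibroblast and matrix genes and 5 and 10 for p53 targets. They were 6 and 6 for heat shock genes, and 15 and 5 for anterior and central Hox genes.

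**Figure D2:**
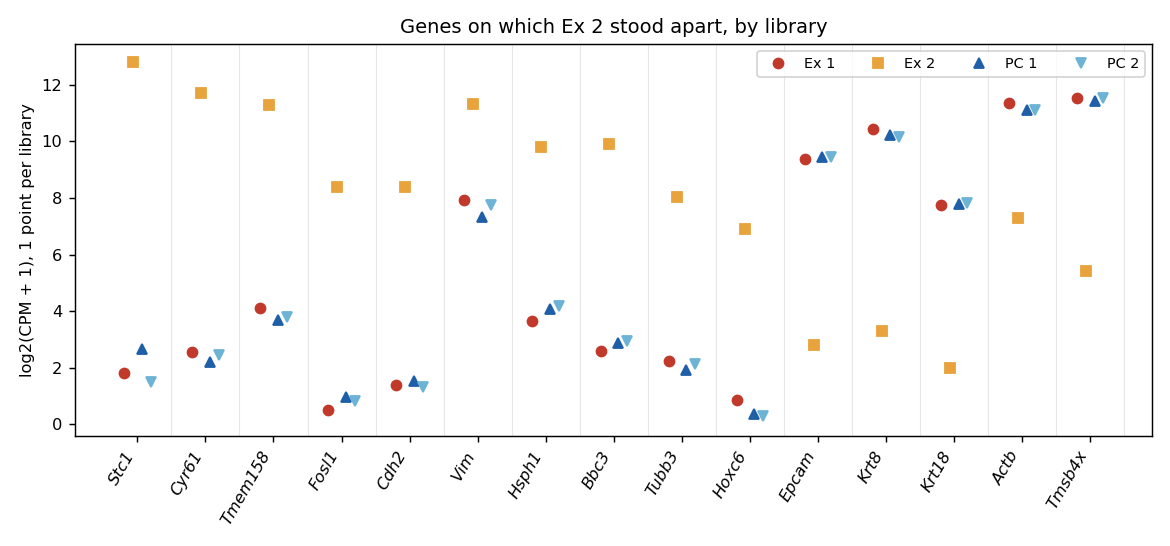
Log2(CPM + 1) of genes on which Ex 2 stood apart, 1 point per library, with Ex 1 as circles, Ex 2 as squares and PC 1 and PC 2 as triangles. Ex 1 sits beside the PC libraries at every gene, while Ex 2 is far above them for Stc1 through Hoxc6 and far below them for Epcam through Tmsb4x.

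With both Ex libraries in the comparison, no gene passed. edgeR's quasi-likelihood test over all 8 libraries called 0 of 14567 genes at an adjusted p under 0.05 (0%), and the smallest adjusted p was 1. At an unadjusted p under 0.05, 200 genes were higher in Ex (1.37%) and 18 lower (0.124%). The same counts gave 61 calls with DESeq2, 58 higher and 3 lower, and 0 with limma-voom. Without Ex 1, which leaves Ex 2 alone against PC, the median log2 fold change over all genes was -3.98, so low values were general there. The 10 named genes with the smallest p were Stc1, Cyr61, Tmem158, Fosl1, Gpr62, Cdh2, Pcbp4 and Rpl10l, all high through Ex 2, and Retnlb and Ang4, low in both Ex libraries. Rpl10l, a ribosomal protein retrogene, was at 87.9 CPM (59 counts) in Ex 2, 0.511 CPM in Ex 1 and 0 in both PC libraries. A group of 2 against 2 cannot give a two-sided exact p under 0.333 for a single gene.

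Counted by library, 484 genes (3.32%) had both Ex libraries above both PC libraries with at least 20 CPM and 10 counts in each Ex library, and 1337 (9.18%) had both below with at least 20 CPM and 10 counts in each PC library. Many of the second set are genes that Ex 2 lacked, such as Prom1, at 91.9, 0, 175 and 128 CPM. The genes with the widest gap above PC were Snora81, a small nucleolar RNA inside Eif4a2, at 110, 134, 14.8 and 37 CPM in Ex 1, Ex 2, PC 1 and PC 2, and Slc20a1, a phosphate transporter, at 334, 2400, 101 and 196 CPM. Nr1d1, a repressor of the circadian clock, was at 47, 62.6, 27.7 and 23.8 CPM, and Cav1, the coat protein of caveolae, at 181, 420, 71.3 and 109 CPM. The groups do not overlap for any of these 4 genes, and none passed the test over 8 libraries. The widest gaps below PC belonged to Ang4, Retnlb and Apol10a, an apolipoprotein L at 4.19, 2.98, 179 and 46.4 CPM.

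Ex 1 was close to the PC libraries. Of 5283 genes with a mean of at least 20 CPM over Ex 1, PC 1 and PC 2, 74 (1.4%) were more than 2-fold apart between PC 1 and PC 2, 258 (4.88%) between Ex 1 and PC 1, and 83 (1.57%) between Ex 1 and PC 2. Ex 1 was more than 2-fold above both PC libraries for 41 of them and more than 2-fold under both for 33. Compared with PC 1 and PC 2 in a fit of those 3 libraries, where the spread comes from the PC pair and the lone Ex 1 is assumed to vary like it, 86 of 14394 genes passed (0.597%), 51 higher (0.354%) and 35 lower (0.243%) in Ex 1. With total counts as the only scaling, which moves the median over all genes from -0.02 to -0.23 (log2), 388 passed, 100 higher and 288 lower. When the other 4 libraries also set the spread, in a fit of 7, 0 of 15467 genes passed (0%), with 6 higher (0.0388%) and 14 lower (0.0905%) at an unadjusted p under 0.05, and DESeq2 called 4: Retnlb, Sptssb and Cdh4 lower and Serpina3m higher, named here after their values were seen. Cdh4 had 0 counts in Ex 1, 6 in PC 1 and 7 in PC 2, and Serpina3m 2, 0 and 0. Every call below for Ex 1 comes from the 3 libraries and was lost in edgeR's fit of 7. The common dispersion, edgeR's measure of the spread within groups, was 0.0367 in the 3 libraries, 0.985 in the 7 and 1.17 in the 8. Libraries that share a label in the other groups differed widely. Their summed pancreatic acinar genes were at 108 and 111000 CPM in NC and 282000 and 572 CPM in ExDSS. A pair of values in brackets gives the log2 fold change of Ex 1 over PC and its edgeR adjusted p from the 3 libraries. Ex 1 lay above both PC libraries for 5375 genes tested (37.3%) and below both for 5452 (37.9%). At an unadjusted p under 0.05 the 3 libraries gave 855 genes higher (5.94%) and 819 lower (5.69%). These shares are the background for the counts below. Among the genes named in this text that passed in edgeR, DESeq2 in the same 3 libraries did not call Alpi, C3, Cck, Dgat2, Gpd1, Orm1, Plin1, Plin4, Saa3 and Usp2. Of these named genes, limma-voom did not call Alpi, Ang3, Ang5, Cck, Cldn15 and Slc13a1. Both also left out further genes that passed in edgeR and are not named here.

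Adipocyte genes were higher in Ex 1 than in both PC libraries. Of 18 tested, 15 rose and none fell, and their median log2 fold change was 1.99 against -0.02 over all genes. Ex 2 held 24 counts for the whole list. Retn, the adipokine resistin, was at 110 CPM in Ex 1, 0 in Ex 2, 20.6 in PC 1 and 17.4 in PC 2, and rose by 2.53 on the log2 scale (SE 0.21, edgeR adjusted p = 5.49e-06). Car3, a cytosolic carbonic anhydrase abundant in fat, was at 343, 0, 47.4 and 58.7 CPM, and rose by 2.69 (SE 0.22, adjusted p = 5.49e-06). Adipoq, the adipokine adiponectin, was at 170, 0, 26.4 and 39.3 CPM, and rose by 2.37 (SE 0.23, adjusted p = 0.000179). For all 3 genes Ex 1 was more than 5-fold above the PC mean.

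The rise covered lipid droplet proteins, lipid enzymes and carriers. Cidec, which enlarges lipid droplets, was at 86.7, 0, 13.5 and 18.1 CPM (log2 fold change 2.45, adjusted p = 1.52e-05), and Plin1, which coats them, at 12.8, 0, 2.18 and 3.46 CPM (2.18, 0.0105). Scd1, the stearoyl-CoA desaturase, was at 300, 2.98, 74.5 and 55.5 CPM (2.2, 6.92e-05). Lpl, lipoprotein lipase, was at 213, 8.94, 62.7 and 57.7 CPM (1.82, 0.000129), and Lipe, hormone-sensitive lipase, at 61.3, 2.98, 13.2 and 17 CPM (2.02, 0.000137). Each of these 5 was at least 3.53-fold above the PC mean in Ex 1. Fabp4, the adipocyte fatty acid carrier, was at 674, 4.47, 182 and 214 CPM (1.76, 0.00139). Cfd, the adipocyte complement factor adipsin, was at 427, 1.49, 89.5 and 131 CPM (1.95, 0.00102). Lep, the hormone leptin, was low but separate at 8.49, 0, 1.09 and 0.628 CPM (3.28, 0.00399). Cd36, Thrsp, Acsl1 and Plin4 passed too, with log2 fold changes of 1.87, 2.22, 1.42 and 1.43. Pnpla2, a triglyceride lipase, at 75.8, 2.98, 46.4 and 47 CPM (0.7, 0.162), Pparg, a transcription factor that colonocytes also express, at 70.8, 0, 112 and 70.6 CPM (-0.37, 0.667), and Cidea did not pass.

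The summed level of the adipocyte list was 2770 CPM in Ex 1, 35.8 in Ex 2, 752 in PC 1 and 799 in PC 2. In the groups not compared here it was 491 and 188 CPM in NC and 455 and 2970 CPM in ExDSS. Libraries that share a label in those groups differed by up to 6.53-fold in this level, and Ex 1 and Ex 2 by more. In bulk tissue, more adipocytes and more RNA per adipocyte cannot be told apart, and how much fat each sample held was not measured. Further lipid genes outside the list passed as well and were singled out after their values had been seen. They include Fasn, fatty acid synthase, at 140, 1.49, 61.7 and 57.6 CPM (1.23, 0.00534), Dgat2, which makes triglyceride, at 40.5, 11.9, 19.7 and 18 CPM (1.1, 0.0364), and Gpd1, glycerol-3-phosphate dehydrogenase, at 36.4, 0, 17.3 and 17.1 CPM (1.08, 0.0453).

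**Figure D3:**
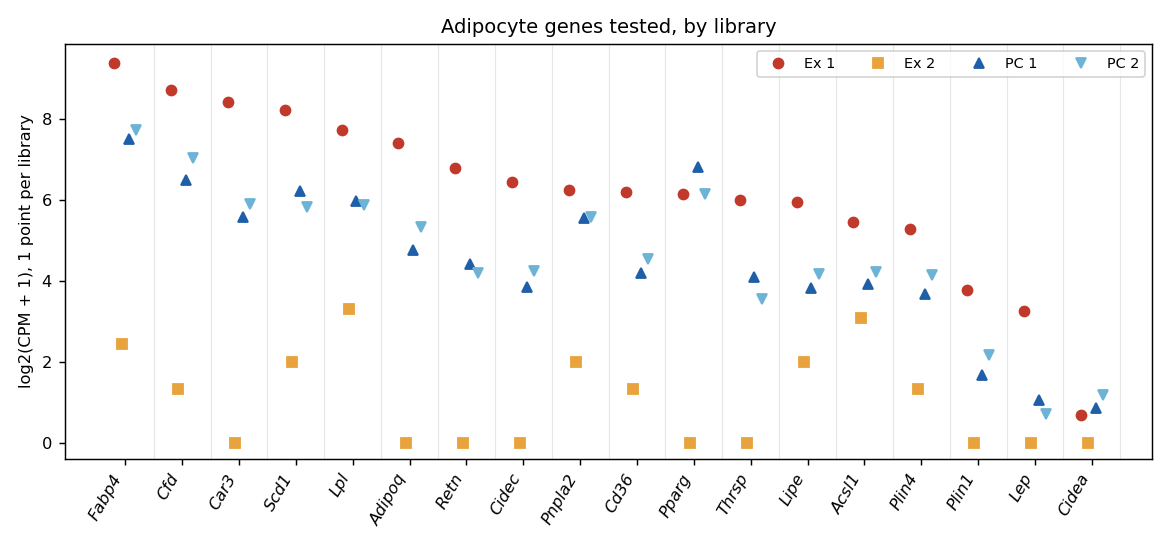
Log2(CPM + 1) of the 18 adipocyte genes tested, 1 point per library, ordered by the level in Ex 1. Ex 1 is the highest point at 16 genes, Ex 2 is at or near 0 at most, and PC 1 and PC 2 lie close together.

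The promoters of 2 adipocyte genes that rose and of 2 secretory genes that fell, Ang4 and Muc2, are shown for comparison. Each sequence is the 250 bases before the start of transcription in RefSeq (GRCm38.p6), 5′ to 3′ on the gene's strand, and capitals mark matches on either strand to 3 short motifs, which can overlap: TATAAA of the box that bears its name, the box CCAAT, and GATAA, the motif of the factors named after it. Adipoq lies at chr16:23146286-23146535 on the plus strand and Retn at chr8:3655520-3655769 on the plus strand. Ang4 lies at chr14:51773591-51773840 on the minus strand and Muc2 at chr7:141690090-141690339 on the plus strand.
Adipoq: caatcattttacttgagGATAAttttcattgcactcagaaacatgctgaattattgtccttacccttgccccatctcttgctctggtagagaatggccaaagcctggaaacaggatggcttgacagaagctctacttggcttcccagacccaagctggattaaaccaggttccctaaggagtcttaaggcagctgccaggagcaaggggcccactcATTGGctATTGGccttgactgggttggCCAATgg
Retn: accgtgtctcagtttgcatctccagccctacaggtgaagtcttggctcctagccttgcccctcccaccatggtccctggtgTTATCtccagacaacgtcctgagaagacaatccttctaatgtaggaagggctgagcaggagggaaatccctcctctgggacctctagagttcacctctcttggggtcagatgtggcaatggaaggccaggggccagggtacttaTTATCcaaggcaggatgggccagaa
Ang4: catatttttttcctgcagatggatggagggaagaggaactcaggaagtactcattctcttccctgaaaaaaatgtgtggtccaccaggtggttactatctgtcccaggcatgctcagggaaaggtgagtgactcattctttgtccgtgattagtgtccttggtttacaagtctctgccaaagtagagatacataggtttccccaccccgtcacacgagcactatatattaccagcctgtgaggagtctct
Muc2: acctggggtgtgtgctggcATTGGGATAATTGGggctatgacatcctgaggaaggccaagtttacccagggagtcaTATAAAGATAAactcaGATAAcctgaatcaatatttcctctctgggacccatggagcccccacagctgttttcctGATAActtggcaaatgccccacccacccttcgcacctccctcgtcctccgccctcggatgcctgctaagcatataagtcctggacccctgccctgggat

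Muc2 held 1 match to TATAAA, 2 to CCAAT and 4 to GATAA, Adipoq 3 to CCAAT and 1 to GATAA, Retn 2 to GATAA, and Ang4 none of the 3. Of 32817 promoters of this length, 12.4% held TATAAA, 33.8% CCAAT and 22.6% GATAA. Of the 15 adipocyte genes that rose, 11 had a promoter in the table, and 0 of these held TATAAA, 5 CCAAT and 3 GATAA. Of the 35 genes that fell, 25 had one, with 5, 7 and 7. A gene was counted if any of its promoters held the motif, while the percentages are of single promoters, so the gene counts and percentages are unlike measures. A match describes letters in this window and says nothing about binding.

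Metallothioneins and a few acute phase and transport genes were higher in Ex 1 too. Mt2, a zinc-binding metallothionein, was at 436 CPM in Ex 1, 19.4 in Ex 2, 124 in PC 1 and 142 in PC 2 (log2 fold change 1.71, SE 0.23, adjusted p = 0.000885). Mt1, its neighbour, was at 616, 20.9, 227 and 299 CPM (1.23, adjusted p = 0.0421). Of 10 acute phase genes tested, 2 rose and none fell in edgeR, with a median of 1.04, and DESeq2 called neither. They were Saa3, a serum amyloid A made in fat and inflamed tissue, at 19.6, 35.8, 6.62 and 5.18 CPM (1.73, 0.00987), and Orm1, orosomucoid, at 10.8, 0, 1.89 and 1.96 CPM (2.48, 0.00554). Saa3 stood at 2550 to 4380 CPM in the NC and ExDSS libraries. Complement C3 was at 78.9, 11.9, 36.3 and 41.1 CPM (1.03, 0.0242), and the iron carrier transferrin, Trf, at 79, 11.9, 28.8 and 35.5 CPM (1.29, 0.00565). The adipocyte list was higher in the same library, at 2770 CPM summed against 752 and 799, and its part in these levels was not tested.

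Carbonic anhydrases, which hydrate carbon dioxide, did not share a direction. Car3 was counted with the adipocyte genes, where it rose (log2 fold change 2.69), and is not among the 7 here. Of 7 tested, 1 rose and none fell, 3 lay above and 3 below both PC libraries, and the median was -0.33. The gene that rose was Car4, the membrane enzyme of surface colonocytes, at 1670, 4.47, 541 and 656 CPM (log2 fold change 1.48, SE 0.3, adjusted p = 0.0301). Car8, a family member without enzyme activity, had the widest fold change in the other direction, at 5.01, 0, 43.3 and 13.7 CPM (-2.51, 0.708). Of 29 ion and water transport genes tested, none passed, 20 of the 30 in the table lay above both PC libraries and 8 below, 9 were higher and 2 lower at an unadjusted p under 0.05, and the median was 0.49. Slc26a3, the chloride-bicarbonate exchanger of the colon, was at 2040, 11.9, 800 and 809 CPM (1.34, adjusted p = 0.067), and Aqp8, a water channel, at 1030, 1.49, 601 and 622 CPM (0.76, 0.304). Atp12a, the colonic proton-potassium pump, was at 300, 5.96, 49.9 and 102 CPM (1.99, 0.245). Fxyd4, a regulator of the sodium pump, was at 175, 0, 17.8 and 55.4 CPM (2.26, 0.708), a gene on which PC 1 and PC 2 differed 3.12-fold. The 17 epithelial markers had a median of 0.04 in Ex 1.

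Mucus genes were lower in Ex 1. Of 22 goblet cell and mucus genes tested, 3 fell, none rose, 17 lay below both PC libraries and the median was -0.63. Muc2, the gel-forming mucin of the colon, was at 573 CPM in Ex 1, 35.8 in Ex 2, 2940 in PC 1 and 2040 in PC 2, and fell by 2.12 on the log2 scale (SE 0.4, adjusted p = 0.0166). Muc4, a membrane mucin whose line overlaps Muc20, was at 6.65, 2.98, 31.4 and 20.5 CPM (-1.97, adjusted p = 0.0114), and Galnt12, which starts the sugar chains of mucins, at 21, 0, 78.8 and 52.3 CPM (-1.65, 0.0166). The groups do not overlap for any of the 3. Spdef, a transcription factor of goblet cells, was at 5.11, 1.49, 34.3 and 16.7 CPM (-2.32, adjusted p = 0.22), and B3gnt6, an enzyme of mucin sugar chains, at 0.102, 0, 19.7 and 4.95 CPM (-6.78, 0.562). The most abundant goblet products did not share a direction: Tff3, a trefoil peptide, was at 3630, 29.8, 1040 and 2730 CPM (0.94, 0.563), Zg16, a lectin, at 3750, 53.7, 3470 and 4980 CPM (-0.17, 0.92), and Clca1 at 3100, 65.6, 2190 and 4750 CPM (-0.16, 0.935). The summed level of the list was 15700 CPM in Ex 1, 17100 in PC 1 and 21400 in PC 2. Ex 2 lay below PC for all of these, as it did for the epithelial markers as a whole (65.6 CPM summed), whose part in these levels of Ex 2 was not tested.

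Of 5 angiogenin genes tested, 3 fell in Ex 1 and none rose. Ang4, an angiogenin that kills bacteria and is made by Paneth and goblet cells, was at 9.41 CPM in Ex 1, 11.9 (8 counts) in Ex 2, 399 in PC 1 and 648 in PC 2. It was 55.7-fold lower in Ex 1 than the PC mean (log2 fold change -5.8, SE 0.43, adjusted p = 1.52e-05), and both Ex libraries lay below both PC libraries. Ang3 and Ang5, lines that overlap and hold identical counts and so cannot be told apart, were at 0 in both Ex libraries and at 11.5 and 15.4 CPM in PC 1 and PC 2, at least 43.8-fold lower in Ex 1 when its 0 is set to 3 counts. Ang, at 46.3, 0, 45.6 and 51.7 CPM (-0.07, adjusted p = 0.937), and its neighbour Rnase4, at 217, 1.49, 287 and 312 CPM (-0.47, 0.495), did not pass. Ang4 was at 41.6 and 26.2 CPM in NC and at 33.2 and 600 CPM in ExDSS, so PC 1, PC 2 and the second ExDSS library were high and the other 5 low. The angiogenin list was drawn up after its values had been seen.

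The antimicrobial genes Retnlb, Reg3b and Reg3g split the PC pair. Summed over the antimicrobial list, the levels were 21500 CPM in Ex 1, 213 in Ex 2, 16200 in PC 1 and 21500 in PC 2. Retnlb, a secreted resistin-like protein of goblet cells, was at 5.42, 10.4, 960 and 131 CPM and so 101-fold lower in Ex 1 than the PC mean, but PC 1 and PC 2 differed 7.33-fold and it did not pass in edgeR (-6.65, SE 3.2, adjusted p = 0.704). Reg3b, an antibacterial lectin, was at 7.05, 13.4, 714 and 2.75 CPM, and Reg3g, its relative, at 2.15, 7.45, 224 and 1.57 CPM, each high in PC 1 alone of the 4. Sptssb, a subunit of the enzyme that starts sphingolipid synthesis, was at 0.716, 1.49, 76.7 and 16.2 CPM (-6, adjusted p = 0.706), and Apol10a had a log2 fold change of -4.75 (0.686). Of 17 antimicrobial genes tested, 1 fell (Ang4), none rose, and the median was -0.3.

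**Figure D4:**
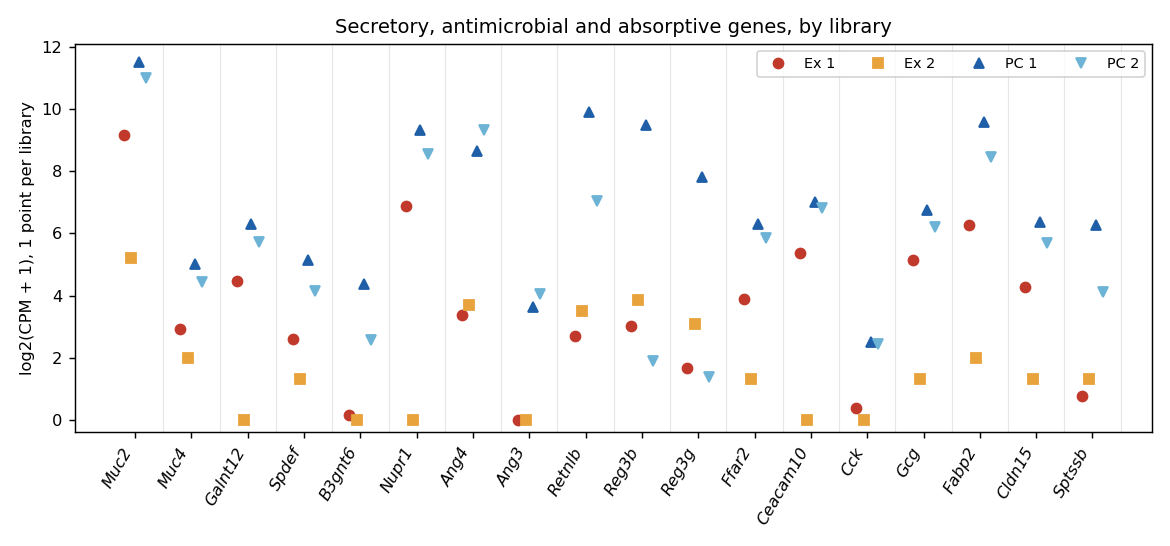
Log2(CPM + 1) of secretory, antimicrobial, enteroendocrine and absorptive genes, 1 point per library. The 18 genes were chosen after their values were seen, mostly for being low in Ex 1; Reg3b and Reg3g are high in PC 1 alone.

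The enteroendocrine hormones Gcg and Cck were among the genes that fell, as was Ffar2, a receptor that is not in the enteroendocrine list. Of 25 enteroendocrine genes tested, 2 fell and none rose, with a median of -0.27. Gcg, the precursor of glucagon-like peptides, was at 34.4, 1.49, 106 and 72.4 CPM (-1.38, adjusted p = 0.0312), and Cck, cholecystokinin, at 0.307 CPM (3 counts), 0, 4.66 and 4.4 CPM (-3.84, 0.0166). Chgb, a granule protein, at 45, 2.98, 90 and 74.2 CPM, did not pass (-0.87, 0.0959), nor did Pyy or Insl5, hormones of the same distal cells, at 131, 0, 96.3 and 128 CPM (0.22, 0.769) and 499, 2.98, 301 and 556 CPM (0.22, 0.871). Ffar2, a receptor for short-chain fatty acids, was at 13.8, 1.49, 77.5 and 56.3 CPM (-2.28, 0.000326).

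Some of the other genes that fell belong to different lists or to none. Cldn15 is in the tight and adherens junction list, whose median was -0.06 in Ex 1, with 11 members above and 12 below both PC libraries. Nov, a matrix protein of the CCN family, was at 7.87, 0, 56.2 and 41.1 CPM (-2.63, adjusted p = 0.000139), and Ceacam10, an adhesion glycoprotein, at 40, 0, 128 and 112 CPM (-1.59, 0.00149). Nupr1, a stress-response nuclear protein, was at 118, 0, 641 and 372 CPM (-2.11, 0.024), and Cldn15, a claudin of tight junctions, at 18.2, 1.49, 82 and 50.2 CPM (-1.86, 0.048). Fabp2, the intestinal fatty acid carrier, was at 76.5, 2.98, 765 and 351 CPM (-2.87, 0.185), and Tfrc, the transferrin receptor, at 92.2, 20.9, 489 and 234 CPM (-1.97, 0.27), and neither passed. Slc13a1, a sulfate transporter, was at 0.307, 0, 14.1 and 6.99 CPM (-5.06, 0.00697) and Alpi, an intestinal alkaline phosphatase, at 0, 0, 3.86 and 1.81 CPM (at least 9.23-fold lower in Ex 1, adjusted p = 0.0364). Of 20 small intestinal absorption genes tested, Alpi alone passed, while the median was 0.2 and 15 of 30 in the table lay above both PC libraries and 6 below. Fabp1, Sis and Lct, which define the small intestine, were at 1.49 CPM or less in all 4 libraries.

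Lists of growth and protein folding lay lower in Ex 1 without a gene passing. The cell cycle list had a median of -0.49 over 41 genes tested, with 20 below and 0 above both PC libraries, 9 at an unadjusted p under 0.05 and 0 called. In summed level the cell cycle list stood at 2160 CPM in Ex 1, 6760 in Ex 2, 3310 in PC 1 and 2160 in PC 2, so Ex 1 was level with PC 2. The unfolded protein response list had a median of -0.38 over 23 genes, with 17 of 24 in the table below both. Cytosolic ribosomal protein genes lay higher, with 71 of 77 above both PC libraries, a median of 0.5, 19 at an unadjusted p under 0.05 and 0 called. Total counts as the scaling moved these medians to -0.73 for the cell cycle genes, of which 6 then passed, and to 0.3 for the ribosomal protein genes. Markers of smooth muscle (median 0.05), macrophages (0.09), enteric neurons and glia (0.06) and endothelium (0.15) lay near the median over all genes, and none of their members passed.

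**Figure D5:**
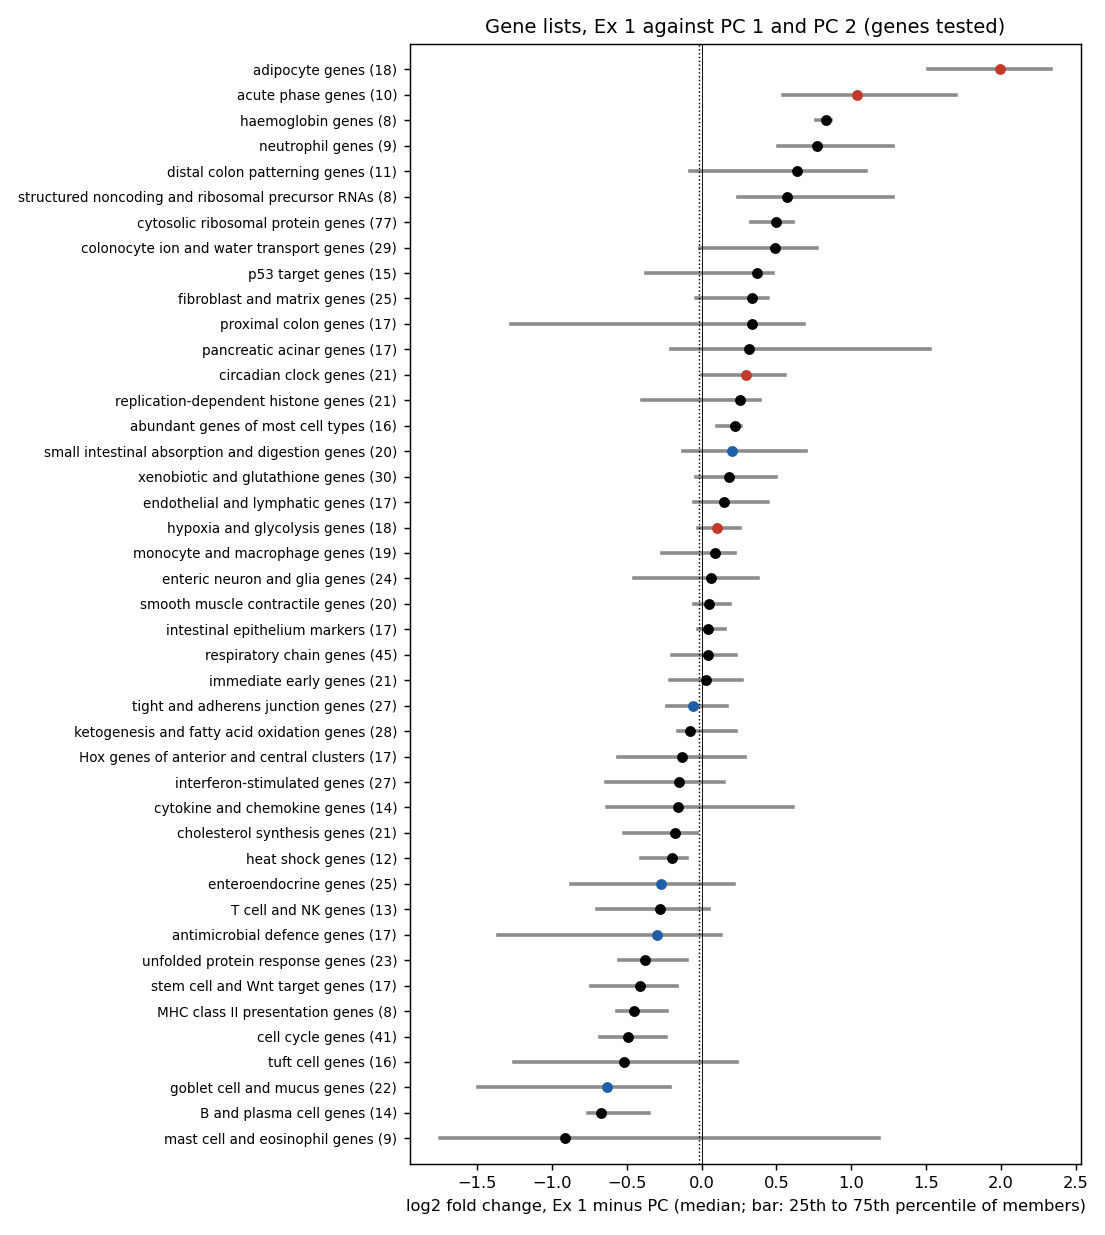
Median log2 fold change of Ex 1 minus PC for each gene list with at least 8 genes tested (number in brackets), with a bar from the 25th to the 75th percentile of its members and a dotted line at the median over all genes, -0.02. Red marks lists with a gene called higher and blue lists with a gene called lower; the adipocyte list has the highest median, 1.99.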

How the data were processed

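RNA of 8 libraries had been read with a 3′ end counting kit. The authors deposited 1 table of raw counts per gene; per the submitters' processing notes Bowtie2, bedtools, edgeR and mm9 were used, with no versions, and no source read here says if reads were counted by strand. Of 22139 names also in GENCODE for GRCm38, 99.69% lay at overlapping positions there. Of 23282 lines, 27 carry dates in place of names (0.135% of counts).

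Counts were tested with edgeR 4.0.16 (R 4.3.3): TMM factors, filterByExpr (at least 10 counts, 15 in all), robust quasi-likelihood F test and Benjamini-Hochberg adjustment over all genes tested, with 0.05 as threshold. DESeq2 1.42.0 and limma-voom 3.58.1 were alternatives. The fit was tested on simulated data. Named genes were the 10 with the smallest p at a mean of at least 5 CPM, the 12 with the widest log2(CPM + 1) gap per direction, the 10 with the smallest p per direction for Ex 1 against PC without Ex 2, and the 3 with the smallest p per list described; placeholder names were left out (3 + 2 + 2 + 0 + 1). Other genes that passed were named after their values were seen. Members and lists were chosen with earlier results of these data known. The comparison of 3 libraries was an alternative to the planned fits.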

Additional observations from a re-analysis of the deposited data

How the results depend on the processing

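The count of genes called for Ex minus PC, 0, was also 0 with RLE, upper-quartile and total-count scaling, without the structured noncoding RNAs, with at least 5 CPM in 2 libraries, with limma-voom, with the Ex and PC libraries only, and with either PC library or Ex 2 left out. It was 5 with no filter on low counts (Rpl10l, Stc1, Cyr61, Rpl39l and Gm11517, high in Ex 2), 61 with DESeq2, and 86 without Ex 2 in the Ex and PC libraries only. Leaving out 1 library at a time gave 0 to 1117, the highest without Ex 1. With the replicate number as a block it was 0. Deviations of same-numbered Ex and PC libraries correlated at r = -0.0563 across genes, a value in which the distance of Ex 2 from Ex 1 weighs, and the labels give no pairing. For Ex 1 against PC, the fit of 7 libraries gave 0 calls, 4 with DESeq2, 86 with the Ex and PC libraries only, and 0 without either PC library. In the 3 libraries, an alternative to the planned fits whose own settings were added after the data were seen, the 86 calls became 388 with total counts, 76 of them shared; the other settings gave 65 to 111. The 484 genes with both Ex libraries higher became 731 with upper-quartile factors, 137 with total counts and 240 at 50 CPM; the 1337 lower became 2881 and 610 under the last 2. Leaving out 1 library at a time, log2 fold changes of Ex over PC ranged from -0.5 to 10.79 for Stc1, -1.09 to 8.37 for Fosl1 and -0.07 to 7.43 for Cdh2, each reversed without Ex 2 (-0.49, -1.07 and -0.05 in the 3 libraries). For Ex 1 against PC, total counts reversed Eef1a1 (-0.17) and Tmsb4x (-0.14). Counts in Ex 2, 1163147, limit what could be detected there.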

Other observations

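Haemoglobin genes, markers of red blood cells, lay above both PC libraries in Ex 1 for 9 of 9 genes in the table, with a median log2 fold change of 0.83 over 8 tested, and none passed (6 at an unadjusted p under 0.05, against 5.94% of all genes). Hbb-bt, an adult beta globin whose reads can be shared with near-identical copies, was at 118 CPM in Ex 1, 7.45 in Ex 2, 72.5 in PC 1 and 55.8 in PC 2 (edgeR adjusted p = 0.0871). Of 21 circadian clock genes tested, 1 was called higher and none lower, with a median of 0.3. It was Usp2, a deubiquitinase of the clock, at 46.4, 5.96, 23.2 and 22.1 CPM (log2 fold change 1.03, edgeR adjusted p = 0.0418, not called by DESeq2). Dbp, a clock output factor, was at 102, 11.9, 53.4 and 79.6 CPM (0.61, adjusted p = 0.331), and the labels give no time of day.

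Plasma and B cell genes lay lower in Ex 1, with a median of -0.67 over 14 tested, 1 higher and 1 lower at an unadjusted p under 0.05 (5.94% and 5.69% over all genes) and 0 called by edgeR. Jchain, the joining chain of secreted antibodies, was at 425 CPM in Ex 1, 11.9 in Ex 2, 706 in PC 1 and 680 in PC 2 (-0.71, adjusted p = 0.345). Pancreatic acinar genes summed to 465 CPM in Ex 1, 134 in Ex 2, 187 in PC 1 and 383 in PC 2. They summed to 108 and 111000 CPM in NC and to 282000 and 572 CPM in ExDSS.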
